A study of Rattus norvegicus with 6 samples.

Results

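The arginase and polyamine genes are 10 genes that carry arginine through ornithine to the polyamines putrescine, spermidine and spermine, and that hold the polyamine level in check. They were taken by name as Arg1, Arg2, Odc1, Srm, Sms, Sat1, Amd1, Azin1, Oaz1 and Oaz2, and all 10 were found among the 14346 genes listed in at least 1 library. Rat dorsal root ganglia, which hold the cell bodies of sensory neurons with their glia, were sequenced 7 days after surgery. In the pSNL group (3 libraries) the sciatic nerve had been partially ligated, which ties off some of its axons and spares others, and the sham group (3 libraries) had the operation without it. The labels give no strain, sex, age, ganglion level or side for either group and no count of animals, so each p-value rests on how far the libraries of a group differ, and part of that may be technical.

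Arginases split arginine into ornithine and urea. Arg1 is the cytosolic enzyme and Arg2 the mitochondrial one. Ornithine decarboxylase (Odc1) makes putrescine, the committed step. S-adenosylmethionine decarboxylase (Amd1) supplies the aminopropyl groups that spermidine synthase (Srm) and spermine synthase (Sms) add in turn. Spermidine/spermine acetyltransferase (Sat1) marks polyamines for export or oxidation. The antizymes Oaz1 and Oaz2 are made when polyamines are plentiful, bind ornithine decarboxylase and send it to the proteasome, and the antizyme inhibitor Azin1, a relative of the decarboxylase, binds the antizymes instead. In rodents, arginase 1 is known for rising in sensory neurons after peripheral axotomy, where it has been linked to neurite growth, and as a marker of alternatively activated macrophages.

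The RefSeq promoter table (build GRCr8, 250 bases before to 50 after each gene's start) held 7 of the 10 genes. The windows of Oaz1, the most abundant of the 10, and Sat1, which had the largest log2 fold change among these 7, are shown 5′ to 3′. No source used here names the build the authors counted on, and these positions belong to GRCr8 alone. Capitals mark matches, on either strand, to 4 motifs: CACGTG (the E-box that Myc proteins bind), TATAAA (the TATA box), TGANTCA (the AP-1 site) and TGACGTCA (the cAMP response element). No marked match overlaps another.
Oaz1 (chr7:9536941-9537240, minus strand): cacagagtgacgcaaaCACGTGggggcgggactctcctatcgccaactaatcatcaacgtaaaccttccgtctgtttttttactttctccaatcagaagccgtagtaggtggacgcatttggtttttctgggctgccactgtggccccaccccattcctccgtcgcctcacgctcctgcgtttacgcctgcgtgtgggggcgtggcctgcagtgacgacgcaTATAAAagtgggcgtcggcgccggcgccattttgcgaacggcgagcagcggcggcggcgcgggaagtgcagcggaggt
Sat1 (chrX:44007839-44008138, plus strand): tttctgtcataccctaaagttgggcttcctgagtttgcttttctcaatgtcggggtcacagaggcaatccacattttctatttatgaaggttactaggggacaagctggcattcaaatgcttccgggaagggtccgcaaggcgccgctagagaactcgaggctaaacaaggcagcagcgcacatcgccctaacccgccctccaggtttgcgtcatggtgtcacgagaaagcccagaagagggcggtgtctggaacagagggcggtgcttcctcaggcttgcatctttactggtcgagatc
The Oaz1 window held CACGTG 234 bases before the start and TATAAA 28 bases before it, while the Sat1 window held none of the 4. Among the 7 windows CACGTG was also found in that of Srm and TATAAA in that of Amd1, and neither of the other two motifs was found in any. Over all 33469 promoter windows of this length, CACGTG was in 6.40%, TATAAA in 14.2%, TGANTCA in 7.30% and TGACGTCA in 1.80%. These are matches of letters and were not tested as binding sites.

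Total estimated counts per library lay between 4310643 and 4416121, and 11091 genes, all 10 of these included, passed the filter on low counts. Atf3, an injury-induced transcription factor that checks the labels, was at 97.6, 294 and 234 CPM (counts scaled for library size) in pSNL and at 11.5, 15.8 and 22.8 CPM in sham, with every pSNL library above every sham library. The replicate 3 libraries stood apart: summed markers of skeletal muscle were at 955 CPM in pSNL replicate 3 and 514 CPM in sham replicate 3 against 13.7 to 18.9 CPM elsewhere, and summed markers of central glia were at 1640 CPM in sham replicate 3 against 24.3 to 56.7 CPM in the other 5 libraries. Summed erythroid markers were lowest in pSNL replicate 1, at 1010 CPM against 2580 to 6510 CPM in the other 5 libraries. Of 5 satellite glia markers DESeq2 called Fabp7 lower and Cdh19 higher in pSNL. Of 5 myelinating Schwann cell markers it called Prx higher, and edgeR called none in either list. The sensory neuron markers, all 8 of which were tested, summed to between 25100 and 26200 CPM in pSNL and between 23300 and 28400 CPM in sham. None of the 8 passed edgeR's test. DESeq2 called 1, Snap25, where it called 2.89% of the genes to which it gave an adjusted p. For 3 of the 8 the groups did not overlap, against 21.4% of all tested genes. These were Snap25 and Rbfox3, lower in each pSNL library, and Tubb3, higher in each (log2 fold change -0.51, -0.46 and 0.27).

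Of the 10 genes 1 rose after pSNL, Arg1, and none fell. Of all tested genes 0.442% were called higher and 0.018% lower at an adjusted p of 0.05 (edgeR quasi-likelihood test, Benjamini-Hochberg over all tested genes). DESeq2 also called Arg1 alone among the 10, where it called 2.89% of the genes to which it gave an adjusted p. At an unadjusted p under 0.05 stood 2 of the 10, Arg1 and Sat1, against 15.5% of tested genes. The same 2 genes had pSNL libraries that did not overlap the sham libraries, as did 21.4% of tested genes. The median log2 fold change was -0.036 over the 10 genes and -0.0024 over all tested genes.

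**Figure D1:**
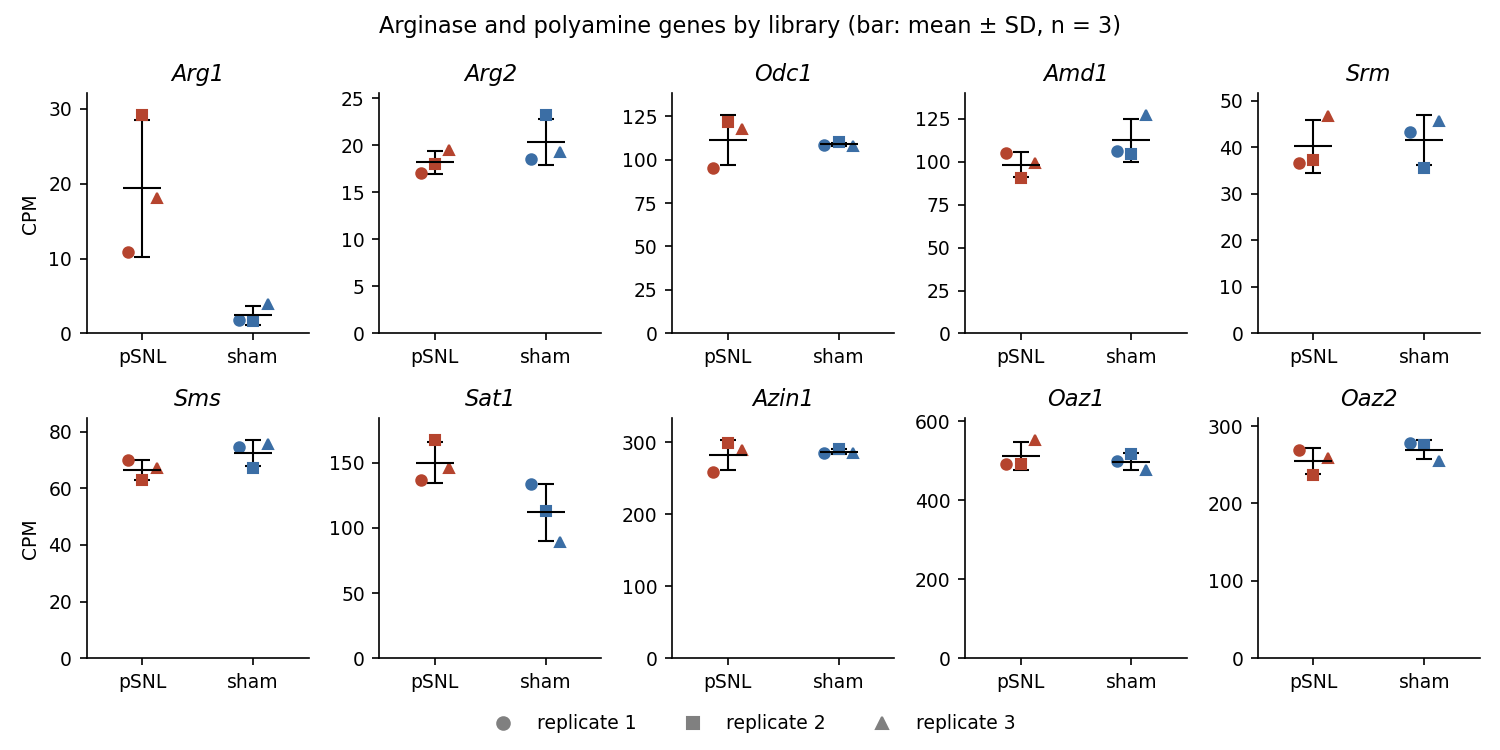
CPM of the 10 arginase and polyamine genes in each library, pSNL left and sham right; symbols mark the replicate number, and bars show the mean ± SD of 3 libraries. The groups are apart for Arg1 (10.9 to 29.1 CPM in pSNL, 1.61 to 3.91 CPM in sham) and, narrowly, for Sat1 (136.9 to 167 CPM in pSNL, 89.4 to 133 CPM in sham), and overlap for the other 8 genes.

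Arg1 (gene ID 29221) had 48, 126 and 79 estimated counts in pSNL replicates 1 to 3, against 8, 7 and 17 counts in sham replicates 1 to 3. On the scaled libraries this was 10.9, 29.1 and 18.1 CPM in pSNL and 1.83, 1.61 and 3.91 CPM in sham. The lowest pSNL library was thus well above the highest sham library. Arg1 rose 7.83-fold, to 19.4 ± 9.18 CPM in pSNL against 2.45 ± 1.27 CPM in sham (SD, n = 3 each; log2 fold change 2.97 ± 0.46, SE; edgeR adjusted p = 0.0361), and the 95% interval of the fold ran from 3.80 to 16.1. It was the most variable of the 10 genes in both groups. Its highest library was 2.67 times its lowest within pSNL and 2.43 times within sham. The coefficient of variation was 47.4% in pSNL, where counting alone would give 10.9%, and 51.8% in sham, where counting alone would give 30.6%. The call held without pSNL replicate 1 (edgeR adjusted p = 0.00513) and was lost without pSNL replicate 2 (0.0884) or 3 (0.0621) or sham replicate 1 (0.157), 2 (0.206) or 3 (0.0532), and also without both replicate 3 libraries (0.0628), while the log2 fold change stayed between 2.55 and 3.52. In bulk tissue, more cells that carry a transcript and more transcript per cell cannot be told apart.

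Arg2 (gene ID 29215) was at 17.0, 18.03 and 19.5 CPM in pSNL and 18.6, 23.2 and 19.3 CPM in sham. Its groups overlapped, and its log2 fold change of -0.16 ± 0.16 (SE) did not pass the test (edgeR adjusted p = 0.659). The 95% interval of its fold ran from 0.702 to 1.14. Levels of different genes are compared here in FPKM, the authors' values corrected for gene length and library depth. Arg1 was at 7.36, 19.4 and 11.9 FPKM in pSNL and 1.21, 1.06 and 2.63 FPKM in sham. Arg2 was at 11.85, 12.4 and 13.2 FPKM in pSNL and 12.6, 15.8 and 13.4 FPKM in sham. Arg1 therefore made up 38.3%, 61.0% and 47.4% of the arginase FPKM in pSNL, against 8.76%, 6.30% and 16.4% in sham. The sum of both arginases was 25.4 ± 6.26 FPKM in pSNL and 15.6 ± 1.55 FPKM in sham (SD, n = 3 each), and its groups did not overlap. In sham every library had more Arg2 than Arg1 per length, while in pSNL this held in replicates 1 and 3 and the order was turned in replicate 2. These shares and sums are descriptions and carry no test.

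**Figure D2:**
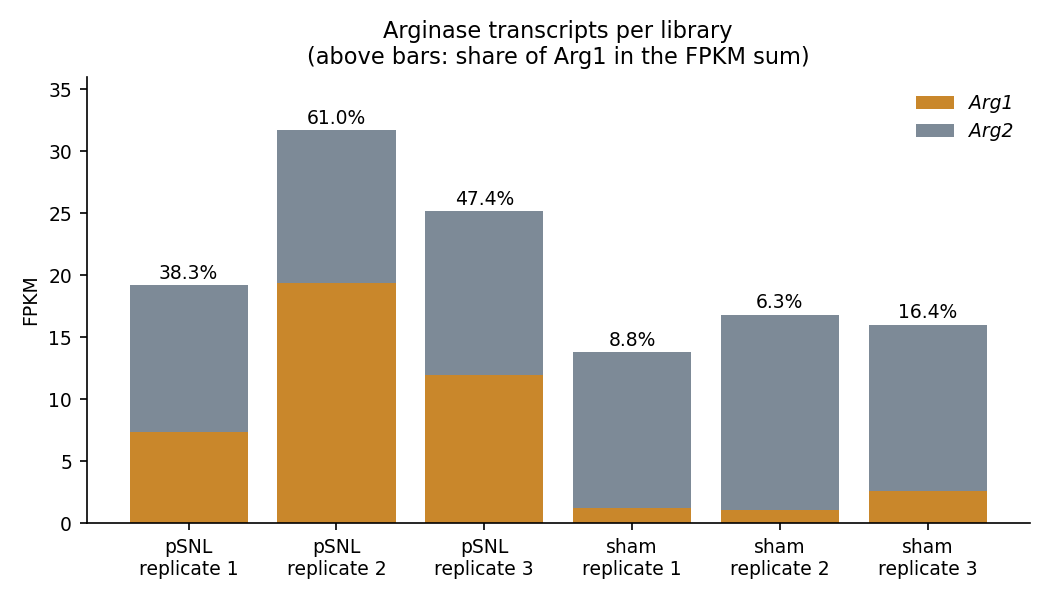
FPKM of Arg1 (lower part of each bar) and Arg2 (upper part) in the 3 pSNL and 3 sham libraries, with the share of Arg1 in the sum written above each bar. The Arg1 share is 38.3% to 61.0% in pSNL and 6.30% to 16.4% in sham, while Arg2 lies between 11.8 and 15.8 FPKM in all 6 libraries.

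Summed macrophage markers were higher in every pSNL library than in any sham library, but not with Lyz2, their largest part, left out. Summed hepatocyte and neutrophil markers overlapped between the groups. Those latter sums rest on few counts, and none of their genes was tested. All 4 hepatocyte markers and 4 of 6 neutrophil markers fell below the low-count filter. The neutrophil markers Elane and Ltf were listed in no library. Of 12 macrophage markers, all tested, 11 had a positive fold change and 8 stood at an unadjusted p under 0.05, against 15.5% of all tested genes. None of the 12 was called by edgeR, which called 0.442% of all tested genes higher. DESeq2 called 5 of them, Lyz2, C1qa, C1qb, C1qc and Csf1r, all higher in pSNL. It called 2.89% of the genes to which it gave an adjusted p. The summed level of the 12 macrophage markers was 321 to 550 CPM in pSNL and 186 to 249 CPM in sham. Lyz2 made up 166 of the 321 CPM in pSNL replicate 1 and 86.0 of the 249 CPM in sham replicate 3. The rest of the sum was thus lower in that pSNL library than in that sham library. Taken singly, 8 of the 12 overlapped between pSNL and sham, and 4 were higher in each pSNL library. Of 6 markers of alternatively activated macrophages, 4 were tested, 3 of them at an unadjusted p under 0.05, and Retnla and Chil3 were listed in none of the 6 libraries. Mrc1 and Cd163 belong to both lists. Clec10a, a macrophage lectin, rose to 16.4, 27.7 and 24.3 CPM in pSNL, against 6.65, 8.49 and 8.96 CPM in sham (edgeR adjusted p = 0.0264). The mannose receptor Mrc1 was at 13.4, 21.7 and 22.0 CPM in pSNL and 12.6, 11.9 and 13.8 CPM in sham, and the scavenger receptor Cd163 at 1.36, 1.85 and 3.67 CPM in pSNL and 1.38, 3.67 and 5.06 CPM in sham, and neither passed the test (edgeR adjusted p = 0.244 and 0.659). The interleukin 4 receptor Il4r was at 25.2, 51.1 and 38.8 CPM in pSNL and 17.9, 19.3 and 24.8 CPM in sham, with groups that did not overlap, and was called by DESeq2 (adjusted p = 0.0461) but not by edgeR (adjusted p = 0.152). The sum of the 4 tested markers was 56.3 to 102 CPM in pSNL and 38.5 to 52.6 CPM in sham. Hepatocyte markers, from the tissue richest in arginase 1, summed to 0.925 to 2.27 CPM in pSNL and 0.919 to 1.38 CPM in sham, and neutrophil markers to 1.15 to 11.1 CPM in pSNL and 1.38 to 6.20 CPM in sham, with their highest value in pSNL replicate 1, where Arg1 was lowest among the pSNL libraries. Atf3 and the macrophage sum shared with Arg1 their lowest pSNL library, replicate 1, and their highest sham library, replicate 3. Sham replicate 3 is also the library high in central glia and muscle markers. Lyz2, the largest part of the macrophage sum, was lowest in it among the sham libraries. Other ranks differed. The macrophage sum was 321, 537 and 550 CPM in pSNL replicates 1 to 3, highest in replicate 3, while Arg1 and Atf3 were highest in replicate 2. Among sham libraries Atf3 was lowest in replicate 1, while Arg1 and the macrophage sum were lowest in replicate 2. The part of any of these in the Arg1 result was not tested.

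The library profile of Arg1 was compared with those of the 11090 other tested genes, each as log2 CPM minus its own mean over the 6 libraries. The 5 nearest, by root-mean-square difference over these libraries, were Cidec (0.178), a lipid droplet protein; Ciita (0.218), the transactivator of MHC class II genes; Npy (0.305), a neuropeptide; Cd74 (0.328), the class II invariant chain; and RT1-Ba (0.338), a class II chain. Cidec, the nearest, was at 2.27, 6.94 and 4.36 CPM in pSNL and 0.229, 0.230 and 0.919 CPM in sham. Ciita was at 4.99, 17.3 and 10.8 CPM in pSNL and 1.15, 1.15 and 2.07 CPM in sham. Both had the same order of pSNL libraries as Arg1, with replicate 2 highest and replicate 1 lowest. The choice by nearness favours such an order, so it is no separate result. None of the 5 passed edgeR's test (adjusted p = 0.0504 to 0.142), which called 0.442% of all tested genes higher. DESeq2 called all 5, where it called 2.89% of the genes to which it gave an adjusted p. The 5 were picked for nearness to Arg1, whose groups are apart. A difference between the groups was thus built into the choice, and these calls are no result about the 5 genes. All points come from the same 6 libraries, and nearness of profile is given as a description only.

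**Figure D3:**
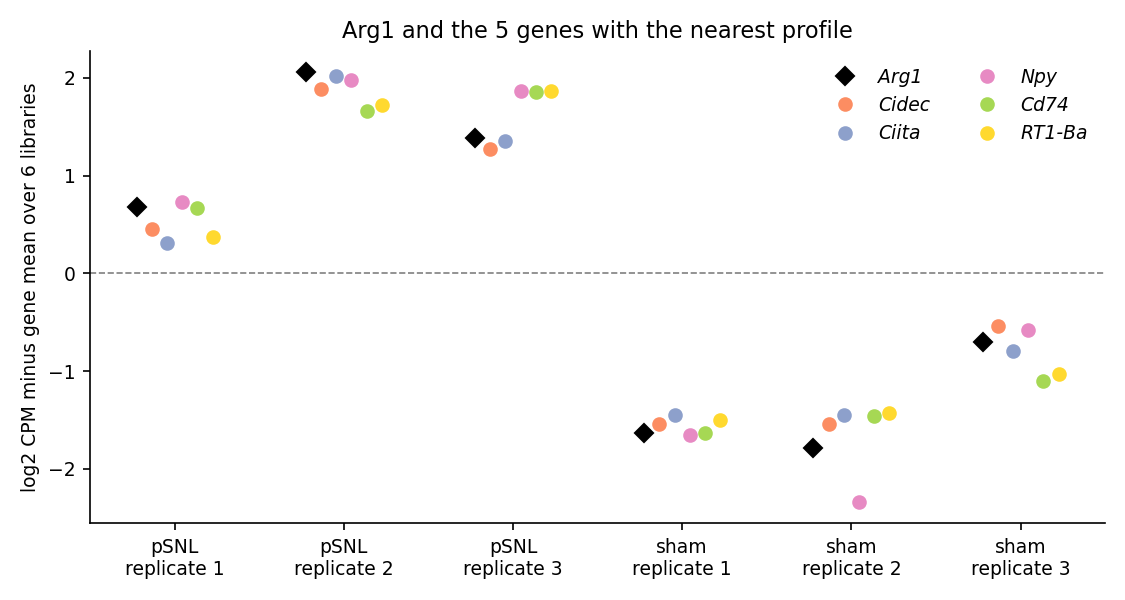
Log2 CPM minus the gene's own mean over the 6 libraries for Arg1 (diamonds) and the 5 genes nearest to it (circles), by library, pSNL left and sham right. All 6 genes are above 0 in each pSNL library and below 0 in each sham library, with pSNL replicate 1 the lowest of the pSNL libraries and sham replicate 3 the highest of the sham libraries. The 5 genes were chosen for nearness to Arg1, so the shared pattern follows largely from that choice.

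The 4 enzymes of polyamine synthesis did not pass the test in either direction (edgeR adjusted p = 0.418 to 0.917; none at an unadjusted p under 0.05 and none with DESeq2). Odc1 (gene ID 24609) was at 95.1, 121 and 117 CPM in pSNL and 108, 109.9 and 108 CPM in sham. The sham libraries fell inside the pSNL range, and the log2 fold change was 0.03 ± 0.11 (SE; edgeR adjusted p = 0.917). The 95% interval of the fold, 0.869 to 1.21, does not reach a change of the size seen for Arg1. In sham the 3 values of Odc1 were closer together than counting error predicts, with a coefficient of variation of 0.932% where counting alone would give 4.59%, and in pSNL they were further apart, at 12.7% against 4.54%. The low value was in pSNL replicate 1, the library in which Arg1 was also lowest among the pSNL libraries.

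Amd1 (gene ID 81640) was at 105, 90.8 and 99.1 CPM in pSNL and 106, 104 and 127 CPM in sham. It had the lowest log2 fold change of the 10 genes, -0.19 ± 0.11 (SE), which did not pass the test (edgeR adjusted p = 0.418). Its highest value was in sham replicate 3, the library high in central glia and muscle markers, and without that library the log2 fold change was -0.10 (edgeR adjusted p = 0.692). The part of those tissues in Amd1 was not tested. Srm (gene ID 84596) was at 36.5, 37.2 and 46.8 CPM in pSNL and 43.3, 35.6 and 45.7 CPM in sham, so that both groups covered nearly the same range. Sms (gene ID 363469) was at 69.9, 62.9 and 67.0 CPM in pSNL and 74.5, 67.2 and 75.6 CPM in sham, and its groups overlapped through pSNL replicate 1 and sham replicate 2. Their log2 fold changes were -0.05 ± 0.14 for Srm and -0.12 ± 0.10 for Sms (SE; edgeR adjusted p = 0.91 and 0.584). The upper ends of the 95% intervals of the fold were 1.21 for Srm, 1.07 for Sms and 1.03 for Amd1.

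Sat1 (gene ID 302642), the gene of polyamine acetylation, was at 136.9, 167 and 146 CPM in pSNL and 133, 113 and 89.4 CPM in sham. The pSNL libraries lay above the sham libraries, but pSNL replicate 1 exceeded sham replicate 1 by only a small margin. Its mean was 150.1 ± 15.6 CPM in pSNL and 112 ± 22.0 CPM in sham (SD, n = 3 each), a log2 fold change of 0.42 ± 0.14 (SE) that had an unadjusted p of 0.0154 and did not pass the test (edgeR adjusted p = 0.208; DESeq2 adjusted p = 0.16). The 95% interval of its fold ran from 1.07 to 1.68. Within sham it varied 1.49-fold, with a coefficient of variation of 19.7% where counting alone would give 4.53%. The lowest sham value was in replicate 3, the library with high central glia markers, and without that library the log2 fold change was 0.28 (edgeR adjusted p = 0.316), while without sham replicate 1 it was 0.57 (adjusted p = 0.169). Per length, Sat1 was at 2.89 ± 0.213 times Odc1 in pSNL and 2.20 ± 0.43 times Odc1 in sham (ratio of FPKM, SD, n = 3 each). This ratio was lowest in pSNL at 2.66, in replicate 3, and highest in sham at 2.63, in replicate 1, so the groups were just apart.

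None of the 3 regulators of ornithine decarboxylase passed the test (edgeR and DESeq2; none at an unadjusted p under 0.05), and all 3 had overlapping groups. Oaz1 (gene ID 25502) was at 491.5, 492 and 552 CPM in pSNL and 498, 517.5 and 476 CPM in sham, and its highest and lowest values were both in replicate 3 libraries. Oaz2 (gene ID 501454) was at 269.5, 236.5 and 259 CPM in pSNL and 278, 276 and 255 CPM in sham. Azin1 (gene ID 58961) was at 259, 299 and 289 CPM in pSNL and 285, 290.3 and 285 CPM in sham. As with Odc1, the Azin1 values were close together in sham (coefficient of variation 1.04%, where counting alone would give 2.83%) and spread further in pSNL (7.34% against 2.85%), with pSNL replicate 1 lowest in both genes. Log2 fold changes were 0.04 ± 0.08 for Oaz1, -0.08 ± 0.08 for Oaz2 and -0.02 ± 0.08 for Azin1 (SE; edgeR adjusted p = 0.855, 0.691 and 0.923). No 95% interval of the fold among these 3 genes reached below 0.831 or above 1.17.

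**Figure D4:**
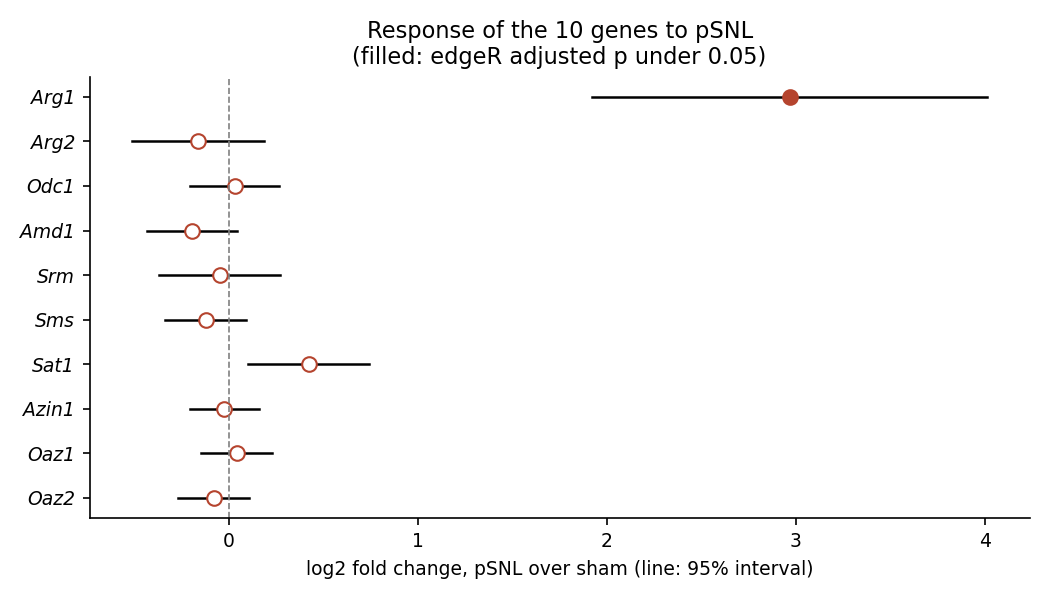
Log2 fold change of pSNL over sham for each of the 10 genes, with its 95% interval from edgeR's fit; the filled point passed an adjusted p of 0.05. The interval of Arg1 runs from 1.93 to 4.01, that of Sat1 from 0.10 to 0.74, and those of the other 8 genes include 0 and lie within -0.51 and 0.27.

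Ordered by FPKM, Oaz1 was highest in both groups, at 496 ± 28.5 FPKM in pSNL and 480.4 ± 15.6 FPKM in sham (SD, n = 3 each), which placed it at rank 131 of all listed genes in sham. It made up 49.5 ± 1.52% of the summed FPKM of the 10 genes in pSNL and 50.1 ± 1.12% in sham. Oaz2 followed at 139.7 ± 10.2 FPKM in pSNL and 147 ± 5.07 FPKM in sham. Sat1 came next at 127 ± 12.7 FPKM in pSNL and 94.4 ± 17.7 FPKM in sham. The ranges of Oaz2 and Sat1 were apart in sham and overlapped in pSNL. Azin1 was at 65.3 ± 4.18 FPKM in pSNL and 66.2 ± 0.755 FPKM in sham, apart from its neighbours in both groups.

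Lower in the order, Odc1 was at 44.1 ± 5.16 FPKM in pSNL and 43.0 ± 0.394 FPKM in sham, and Sms at 39.8 ± 2.45 FPKM in pSNL and 43.2 ± 3.03 FPKM in sham (SD, n = 3 each). The ranges of these 2 genes overlapped in both groups. Amd1 was at 31.4 ± 2.54 FPKM in pSNL and 35.9 ± 4.47 FPKM in sham, and Srm at 32.0 ± 4.20 FPKM in pSNL and 33.0 ± 4.49 FPKM in sham, again with overlap in both groups. Arg2 and Arg1 were the lowest pair, and their ranges were apart in sham and overlapped in pSNL. The proportions between the decarboxylase and its regulators overlapped between the groups: Oaz1 was at 11.3 ± 1.37 times the FPKM of Odc1 in pSNL and 11.2 ± 0.374 times in sham, and Azin1 at 1.49 ± 0.0883 times in pSNL and 1.54 ± 0.00353 times in sham. The spread of both ratios was wider in pSNL, where replicate 1 had the highest value of each.

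Genes that border on this pathway were looked up in 6 lists, which cover arginine and the urea cycle, ornithine and proline, transport of cationic amino acids and polyamines, polyamine oxidation and other regulators, the hypusine modification made from spermidine, and the methionine cycle that feeds Amd1. Of 45 such genes 43 were listed in at least 1 library and 34 were tested. Neither edgeR nor DESeq2 called any of the 34. Of all tested genes edgeR called 0.442% higher and 0.018% lower. DESeq2 called 2.89% of the genes to which it gave an adjusted p. At shares this low, the absence of calls here and in the single lists below is no result about these genes. At an unadjusted p under 0.05 stood 2 of the 34, a smaller share than the 15.5% of all tested genes. Fold changes were positive for 11 and negative for 23 of the 34, against 5474 and 5609 of all tested genes with a unique symbol. The 34 had a median log2 fold change of -0.071, against -0.0024 over all tested genes, and a range of -0.41 to 0.39. The groups did not overlap for 3 of the 34, Slc7a1, Mat2b and Eif5a, again a smaller share than the 21.4% of all tested genes.

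None of the 7 tested transport genes passed edgeR's or DESeq2's test, with 1 at an unadjusted p under 0.05 and a median log2 fold change of -0.061. That gene was Slc7a1, which encodes the main arginine importer of many cells. It was at 63.6, 73.1 and 58.2 CPM in pSNL and 82.9, 89.3 and 86.2 CPM in sham. Every pSNL library was below every sham library, and the log2 fold change was -0.41 ± 0.11 (SE; edgeR adjusted p = 0.112; DESeq2 adjusted p = 0.103). Atp13a2, a lysosomal polyamine exporter, was at 325 ± 23.7 CPM in pSNL and 362 ± 18.3 CPM in sham, and Slc7a6, a cationic amino acid exchanger, at 45.5 ± 2.69 CPM in pSNL and 40.6 ± 5.18 CPM in sham (SD, n = 3 each; edgeR adjusted p = 0.422 and 0.573).

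Of 10 genes of arginine and the urea cycle 5 were tested, with none past the threshold or at an unadjusted p under 0.05 and none called by DESeq2 (median log2 fold change -0.22). Ass1 and Asl, which remake arginine from citrulline, were at 37.5 ± 13.6 and 41.95 ± 2.52 CPM in pSNL, and at 48.1 ± 15.9 and 38.6 ± 2.87 CPM in sham (SD, n = 3 each; edgeR adjusted p = 0.666 and 0.663). Gamt, of creatine synthesis, was at 40.1 ± 2.98 CPM in pSNL and 46.6 ± 7.29 CPM in sham (adjusted p = 0.486). The liver enzymes Cps1 and Otc were below the filter. All 6 genes of ornithine and proline were tested, with none past the threshold or at an unadjusted p under 0.05 and none called by DESeq2 (median -0.038). Oat, which interconverts ornithine and glutamate semialdehyde, was at 171.6 ± 8.90 CPM in pSNL and 176.5 ± 18.5 CPM in sham, the proline oxidase Prodh at 21.8 ± 5.33 CPM in pSNL and 25.8 ± 6.67 CPM in sham, and the reductase Pycr3 at 33.6 ± 0.995 CPM in pSNL and 31.9 ± 0.641 CPM in sham (edgeR adjusted p = 0.884, 0.639 and 0.803).

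Among the 4 tested genes of polyamine oxidation and other regulators none passed either test, none had an unadjusted p under 0.05, and the median log2 fold change was 0.16. Azin2, a second antizyme inhibitor, was at 57.2, 75.4 and 61.5 CPM in pSNL and 51.1, 59.4 and 37.0 CPM in sham, with groups that overlapped (log2 fold change 0.39 ± 0.18, SE; edgeR adjusted p = 0.329). Like Sat1, Azin2 had its highest value in pSNL replicate 2 and its lowest in sham replicate 3. Spermine oxidase (Smox) was at 48.0 ± 2.78 CPM in pSNL and 51.3 ± 10.1 CPM in sham, and Sat2, a relative of Sat1, at 17.9 ± 1.08 CPM in pSNL and 14.9 ± 3.66 CPM in sham (SD, n = 3 each; edgeR adjusted p = 0.789 and 0.554). Of the 4 hypusine genes none passed either test or had an unadjusted p under 0.05 (median -0.048). Eif5a, the translation factor that carries hypusine, was at 446, 420 and 488 CPM in pSNL and 411, 415 and 376 CPM in sham, with pSNL above sham by a small margin (log2 fold change 0.17 ± 0.09, SE; edgeR adjusted p = 0.384). Its paralog Eif5a2 was at 251 ± 16.9 CPM in pSNL and 262 ± 25.7 CPM in sham, and the hydroxylase Dohh at 61.7 ± 5.93 CPM in pSNL and 65.0 ± 2.61 CPM in sham (adjusted p = 0.791 and 0.773).

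Of 8 tested genes of the methionine and methylthioadenosine cycle 7 were lower in pSNL by fold change. Of all 11083 tested genes with a unique symbol 5609 were lower. The median of the log2 values of the 8 was -0.15. None of the 8 passed edgeR's or DESeq2's test and 1 had an unadjusted p under 0.05. This was Mat2b, the regulatory subunit of methionine adenosyltransferase, at 53.6, 48.8 and 53.9 CPM in pSNL and 62.6, 59.9 and 65.5 CPM in sham (log2 fold change -0.27 ± 0.10, SE; edgeR adjusted p = 0.235). Its pSNL libraries were all below its sham libraries. Adi1 and Enoph1, which return methylthioadenosine to methionine, were at 16.6 ± 1.34 and 68.4 ± 7.65 CPM in pSNL, and at 20.0 ± 3.36 and 74.7 ± 6.15 CPM in sham (SD, n = 3 each; adjusted p = 0.499 and 0.624).

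**Figure D5:**
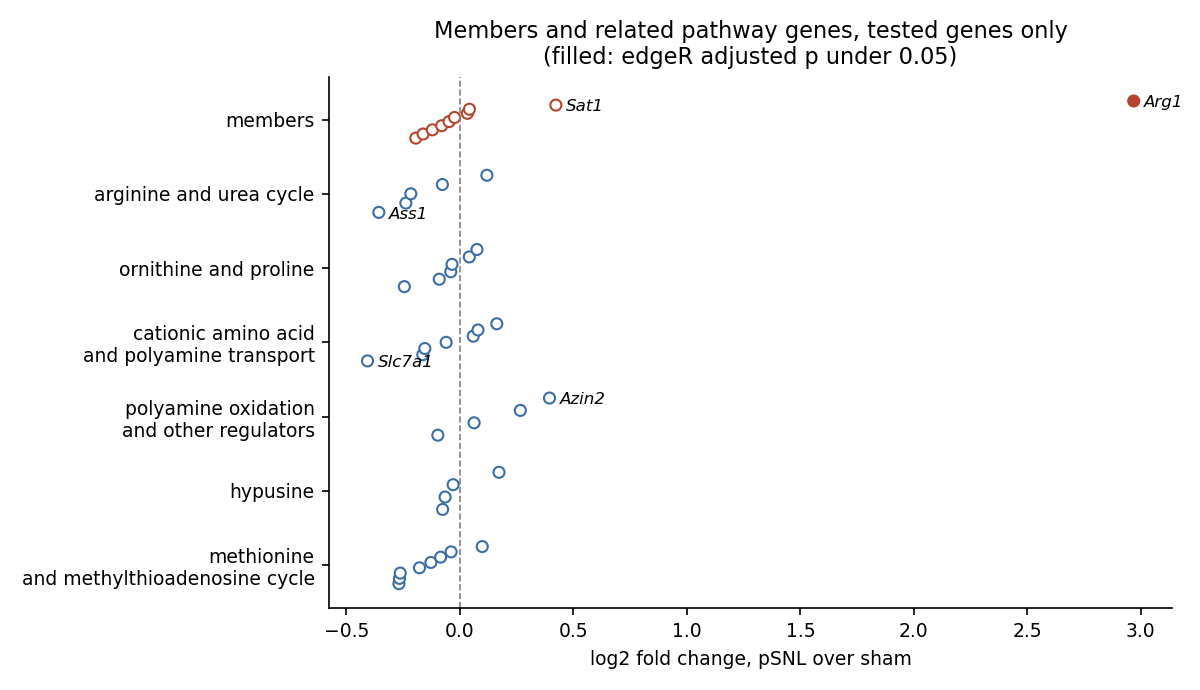
Log2 fold change of pSNL over sham for each tested gene of the 10 (top row) and of the 6 related lists; the filled point passed an adjusted p of 0.05, and the height within a row only spreads the points. All 34 related genes lie between -0.41 (Slc7a1) and 0.39 (Azin2), where Arg1 is at 2.97.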

How the data were processed

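Each library has 1 deposited file with an expected count and an FPKM value per gene. Per the file headers, these are the expected count, an estimate that need not be whole, and FPKM, which is scaled by the authors for gene length and library depth. CASAVA 1.4 and Bowtie2 are named, per the submitters' processing notes; the sources used here do not give the quantifier, build, annotation or use of strand. Genes absent from a file were taken as 0. Of 14346 gene IDs, 14227 matched a RefSeq table (GRCr8) by ID and 16 by transcript, and 103 were kept by ID.

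Expected counts were rounded and tested in edgeR 4.0.16 (R 4.3.3) with TMM factors, its default low-count filter, a robust quasi-likelihood fit and Benjamini-Hochberg adjustment over 11091 genes. On counts simulated with the spread estimated from these data, only median log2 fold changes of the fit were checked, not its p-values. DESeq2 1.42.0 was an alternative. SE and 95% intervals come from edgeR's statistic. CPM uses TMM-scaled library sizes and log2 CPM a prior count of 2. FPKM was used only for levels and ratios, not for tests.

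The 10 genes, the related lists and the marker lists were chosen with earlier results of these data known. All 10 genes are named, as are up to 3 genes with the smallest p in each related list and the 5 genes nearest to Arg1; other genes were named after their values were seen. The Arg1 shares, the other ratios and the promoter motifs were also chosen then.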

Additional observations from a re-analysis of the deposited data

How the results depend on the processing

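Over 13 alternative settings Arg1 stayed higher in pSNL, with log2 fold changes of 2.55 to 3.52; with 1 library left out the range was 2.55 to 3.47 and the call held in 1 of 6 fits, and without both replicate 3 libraries it was 3.52, not past the threshold. The number of the 10 genes called was accordingly 1 as reported, 0 to 1 with 1 library left out and 0 without both replicate 3 libraries. It was 1 under the other 6 settings. No related gene was called under any setting. Among all tested genes 51 were called, against 89 without a low-count filter, 332 with DESeq2, 111 with the replicate block, 102 without both replicate 3 libraries, and 5 to 217 with 1 library left out (217, 9 and 96 without pSNL replicates 1, 2 and 3, and 21, 5 and 33 without sham replicates 1, 2 and 3). Direction turned for 4 genes near 0: with 1 library left out the log2 fold change ranged from -0.038 to 0.139 for Odc1, from -0.175 to 0.024 for Srm, from -0.072 to 0.0396 for Azin1 and from -0.018 to 0.075 for Oaz1, and without both replicate 3 libraries it was -0.014 for Odc1 and -0.048 for Oaz1. Why these values moved was not tested. Under the replicate block Arg1 was at 2.93 (edgeR adjusted p = 0.0167) and Sat1 at 0.435 (0.189); deviations of libraries with the same number correlated at 0.032, 0.011 and 0.123, and only replicate 3 correlated best with its own number, so the numbers were not taken to pair the libraries. Depth limits Arg1 in sham, where it rests on 32 counts over 3 libraries.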

Other observations

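Of the related genes 9 were listed but fell below the filter on low counts, so they have no test. The groups did not overlap for 2 of these 9, a share near the 21.4% of all tested genes. That 21.4% covers only genes that passed the filter, which these 9 did not, so the sets are unlike. The count is no result about these genes, and the 2 are named after their values were seen. Slc7a2, an arginine importer, had 11, 11 and 8 counts in pSNL and 1, 5 and 3 counts in sham. Nos1, the neuronal nitric oxide synthase, which also uses arginine, had 3, 25 and 4 counts in pSNL and 0, 0 and 1 counts in sham, so that most of its counts came from pSNL replicate 2, the library in which Arg1 was highest. Nos2, the inducible synthase of macrophages, had 2 counts over the pSNL libraries and 2 over the sham libraries.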
